A study of Mus musculus with 24 samples.

Results

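The depot by diet interaction asks whether 18 weeks of high-fat diet (HFD) moved a transcript differently in 2 white fat depots of the same strain. For each gene it is the change from chow to HFD in epididymal fat (eWAT, abdominal) minus the same change in inguinal fat (iWAT, under the skin). It was measured by RNA sequencing of polyadenylated RNA in 12 of the 24 libraries of the series, namely the 3 eWAT and 3 iWAT libraries on chow and the 3 and 3 on HFD. All 12 came from C57BL6 mice given the control adeno-associated virus AAV-GFP, so that the chow groups carry the viral vector too. The other 12 libraries, from mice given AAV-irisin under the same diets, entered only where stated. Age, sex and housing of the mice, the tissue the virus entered, and whether a library came from 1 mouse or a pool are not given in the labels. The p-values therefore measure the spread between libraries, which may be technical in part.

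White adipose tissue stores triglyceride in adipocytes and also holds stromal, endothelial, nerve and immune cells. When fat expands in obesity, abdominal depots gather macrophages that surround dying adipocytes, take up lipid and degrade it in lysosomes. Such lipid-associated macrophages carry the receptor Trem2 and make Gpnmb, Spp1 and matrix-degrading enzymes. Epididymal fat is also covered by mesothelium, the sheet of cells that lines the abdominal cavity, which subcutaneous fat lacks.

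Of the 54532 genes of the deposited table, 16507 had at least 0.5 FPKM (reads scaled to gene length and to library size) in at least 3 of the 12 libraries and were tested. Effects are differences of log2(FPKM + 0.5) ± SE, which understate the change of genes with low values, and calls were made at an adjusted p under 0.05 in limma, with the adjustment over all genes tested. The 12 libraries held 14.2 to 19.7 M gene reads. At that depth 13.9 to 19.7 reads make 0.5 FPKM in a 2000-base gene. The depot labels were checked on 2 developmental regulators. Wt1, of visceral fat and mesothelium, was at 2.02 to 10.4 FPKM in eWAT and listed at 0 in all 6 iWAT libraries. Tbx15, of subcutaneous fat, was at 2.88 to 10.7 FPKM in iWAT and at most 0.0896 in eWAT. Adipoq, the adiponectin gene of adipocytes, was at 615 FPKM or more in every library.

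Among the 12 libraries, 4 stood apart, and values without them are given where they move a result. The B cell antigen receptor gene Cd79a was at 145 FPKM in iWAT HFD replicate 1 and at 43.6 in eWAT chow replicate 1, against at most 6.86 elsewhere. Replicate 3 of eWAT HFD held transcripts of the epididymis, the organ next to this fat, with 4329 FPKM summed over 12 marker genes and under 0.4 in each other library; those genes were not among the genes tested. Replicate 3 of iWAT chow was low in macrophage transcripts, with a sum of 169 FPKM over 12 pan-macrophage markers against 1047 and 1009 in its group. In such bulk samples, fewer cells of a type and less RNA per cell cannot be told apart.

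HFD changed far more genes in eWAT than in iWAT, and 714 genes were called for the interaction, 4.33% of those tested. In eWAT 3335 genes were called (20.2%), of which 1931 rose (11.7%) and 1404 fell (8.51%). In iWAT 659 were called (3.99%), of which 427 rose (2.59%) and 232 fell (1.41%). The interaction was positive, meaning a larger rise or smaller fall in eWAT, for 494 genes (2.99%) and negative for 220 (1.33%). The median interaction over all genes tested was 0.0042. Without iWAT HFD replicate 1 the calls numbered 1410, 763 positive and 647 negative, and without iWAT chow replicate 3 they numbered 1262 (919 positive, 343 negative). Without eWAT HFD replicate 1 they numbered 258.

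The 2 depots seldom moved in opposite directions past the threshold. Of the 327 genes called in both depots, which are 9.81% of the eWAT calls and 49.6% of the iWAT calls, 315 moved the same way and 12 the opposite way. By estimates alone, whether called or not, 426 of the 714 interaction genes had opposite signs in the depots. Most interaction genes were called in 1 depot only. In eWAT 487 (2.95% of the genes tested) were called while their unadjusted p in iWAT was at least 0.05. Of them 374 rose and 113 fell. These eWAT-only genes had a median absolute change of 1.75 in eWAT and 0.192 in iWAT. The reverse pattern, a call in iWAT and none in eWAT by the same rule, held for 54 genes (0.327%), 40 rising and 14 falling, with medians of 1.24 in iWAT and 0.237 in eWAT. A further 12 genes (0.0727%) were called in both depots with opposite signs, 8 in both with the same sign but unequal size, and 153 fell in none of these classes.

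A missing call does not show that a depot did not respond. Of the 487 eWAT-only genes, 364 (74.7%) had a 95% confidence interval of the iWAT change that lay within 1 log2 unit on either side of 0. For 46 of the 54 iWAT-only genes (85.2%) the interval of the eWAT change did so. The level in the other depot also matters, since a gene near 0 there could not fall, though it could rise. Of the eWAT-only genes 115 (23.6%) had both iWAT group means under 0.5 FPKM, and 336 (69%) had an iWAT mean of at least 1 FPKM. These counts were not split into genes that rose and genes that fell in eWAT.

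**Figure D1:**
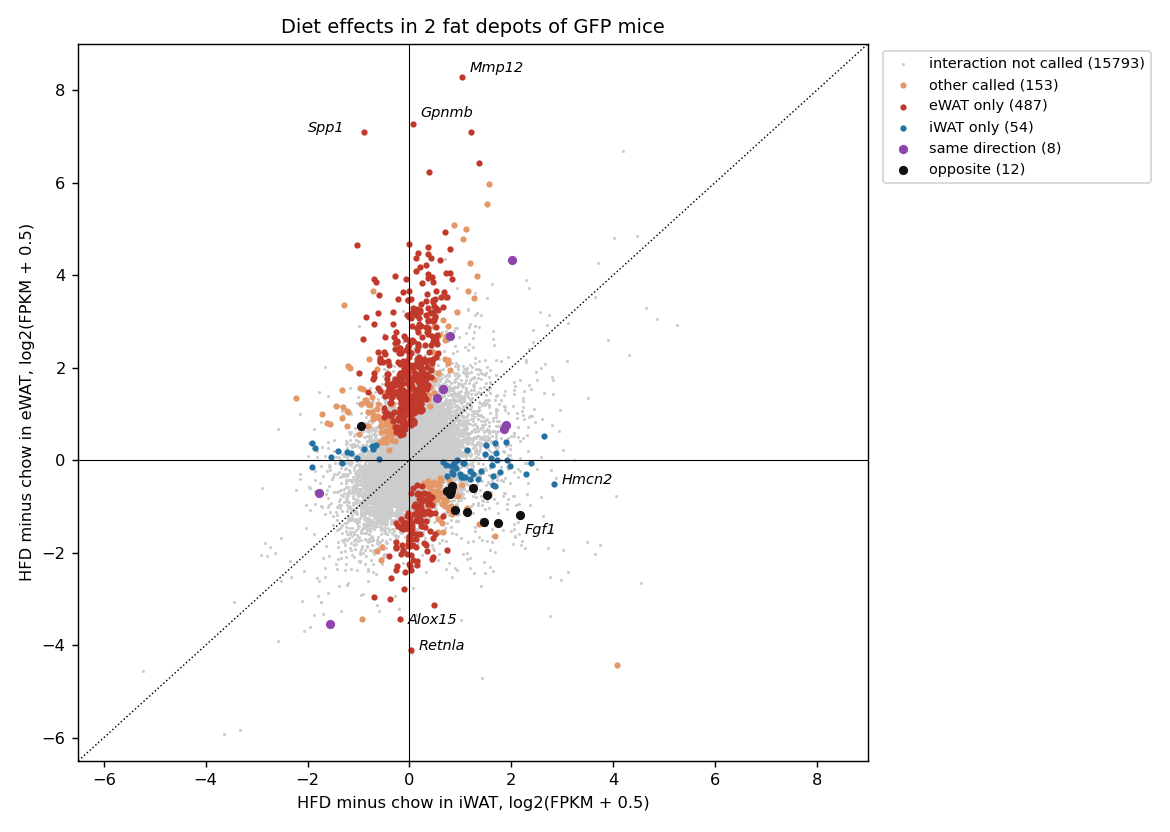
Each point is 1 of the 16507 genes tested, placed by its change from chow to HFD in iWAT (horizontal) and in eWAT (vertical), both in log2(FPKM + 0.5), and coloured by class with the number of genes in brackets. The 487 eWAT-only genes lie along the vertical axis and reach higher than any other class, the 54 iWAT-only genes lie along the horizontal axis, and the dotted line marks equal change in both depots.

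The largest rises in eWAT alone were those of Mmp12, Gpnmb, Spp1, Atp6v0d2, Vsig8 and Rnf128. Mmp12, an elastin-degrading protease of macrophages (ENSMUSG00000049723, chromosome 9, 7344381 to 7369499 in the deposited table), stood at 1.11, 0.508 and 0.0331 FPKM in the 3 eWAT chow libraries and at 498, 139 and 377 in the 3 eWAT HFD libraries. Its iWAT levels were 1.91, 5.18 and 0.18 on chow and 2.50, 8.76 and 2.43 on HFD. The eWAT groups did not overlap, whereas the iWAT groups did. On the log2 scale Mmp12 rose by 8.29 ± 0.78 in eWAT and differed by 1.04 ± 0.78 in iWAT, an interaction of 7.24 ± 1.10 (adjusted p = 0.00631).

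Gpnmb, a membrane glycoprotein of lipid-laden macrophages (chromosome 6, 49036546 to 49070929), showed little mean change in iWAT over all 12 libraries. Its 3 eWAT libraries went from 4.53, 1.89 and 3.76 FPKM on chow to 744, 396 and 629 on HFD. In iWAT the chow libraries were at 14.7, 23.5 and 2.68 FPKM and the HFD libraries at 6.46, 25.2 and 6.89, with wide overlap. On chow 2 of the 3 iWAT libraries exceeded every eWAT library, whereas on HFD every eWAT library exceeded every iWAT library. The iWAT change was 0.06 ± 0.71 and the interaction 7.20 ± 1.0 (adjusted p = 0.00438). The lowest iWAT chow value is that of replicate 3, the library low in macrophage transcripts. Without that library the interaction was 8.06, so the small iWAT change depended on it.

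Spp1, the secreted matrix protein osteopontin (chromosome 5, 104435118 to 104441050), had the largest interaction among the genes named by the rule, 7.98 ± 0.93 (adjusted p = 0.00239). It went from 0.68, 0.131 and 1.09 FPKM to 144, 53.9 and 381 in eWAT. In iWAT, 2.26, 5.71 and 1.73 FPKM on chow stood beside 0.865, 2.50 and 0.969 on HFD, so that its estimate there was negative, -0.89 ± 0.66, without a call.

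Atp6v0d2, a subunit of the proton pump that acidifies lysosomes, rose in eWAT from 0.264 to 0.656 FPKM on chow to 111 to 159 on HFD. Rnf128, a ubiquitin ligase, rose there from 0.207 to 0.514 FPKM to 35.3 to 85.3, and Vsig8, an immunoglobulin-domain membrane protein, from at most 0.422 FPKM to 38 to 113. Their iWAT groups overlapped, and their interactions were 5.88 ± 0.94, 5.86 ± 0.74 and 5.07 ± 0.89. Mmp12, Gpnmb, Spp1 and Rnf128 kept their calls under all 27 alternatives, Atp6v0d2 lost it in 1 and Vsig8 in 2. A gene on the opposite strand overlaps Mmp12 (Mmp1b), Vsig8 and Rnf128 in the deposited table, and as the use of strand is not stated, reads of such pairs cannot be told apart.

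Of the 20 genes on a list of lipid-associated macrophage genes, 16 rose in eWAT and none in iWAT, where 1 (Apoe) fell. For this and later lists, the shares over all genes tested were 11.7% rising and 8.51% falling in eWAT. In iWAT they were 2.59% and 1.41%, and for the interaction 4.33%. Of the 20 genes 12 were called for the interaction, all positive, with a list median of 2.32 beside 0.0042 for all genes. Trem2 itself had an interaction of 4.29, Itgax (the integrin CD11c) 4.02, Lgals3 (galectin 3) 3.33 and Lipa (lysosomal acid lipase) 3.02. The 4 members without an eWAT call were Apoe, Lpl, Fabp4 and Cd36, which adipocytes also express, and Apoe, Lpl, Fabp4 and Cd36 had interactions of 0.51, -0.48, -0.40 and 0.13. Cd9, a tetraspanin of these cells, went from 21.4 to 23.9 FPKM to 98.5 to 163 in eWAT and stayed between 16.6 and 25.5 in both iWAT groups, and its interaction was 2.50 ± 0.30 (adjusted p = 0.00266). Leaving out 1 library at a time gave 8 to 13 calls, and leaving out the 3 libraries rich in B cell or epididymal transcripts gave 8, all positive.

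General macrophage markers moved along with them. Over 12 pan-macrophage markers the summed level was 768 to 1135 FPKM in eWAT chow, 3022 to 4324 in eWAT HFD, 169 to 1047 in iWAT chow and 344 to 638 in iWAT HFD. In eWAT 8 of the 12 rose and none did in iWAT, with 4 called for the interaction. Cd68, a macrophage lysosomal protein, went from 25.1 to 31.7 FPKM to 410 to 506 in eWAT, while its iWAT values ran from 7.27 to 61.5 (interaction 3.52 ± 0.86). Fcgr1, an antibody receptor, had an interaction of 3.53 ± 0.73, Msr1, a scavenger receptor, 2.83 ± 0.65 and Cd14, a receptor of bacterial lipid, 1.97 ± 0.48. Without iWAT chow replicate 3 the calls among these 12 markers numbered 10, in the fits without 1 other library 0 to 4, and without the 3 libraries rich in other transcripts 1, all positive. Of 27 alternatives Fcgr1 lost its call in 10, Msr1 and Cd14 each in 15 and Cd68 in 16. The part of macrophage number in the interactions of macrophage genes was not tested.

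**Figure D2:**
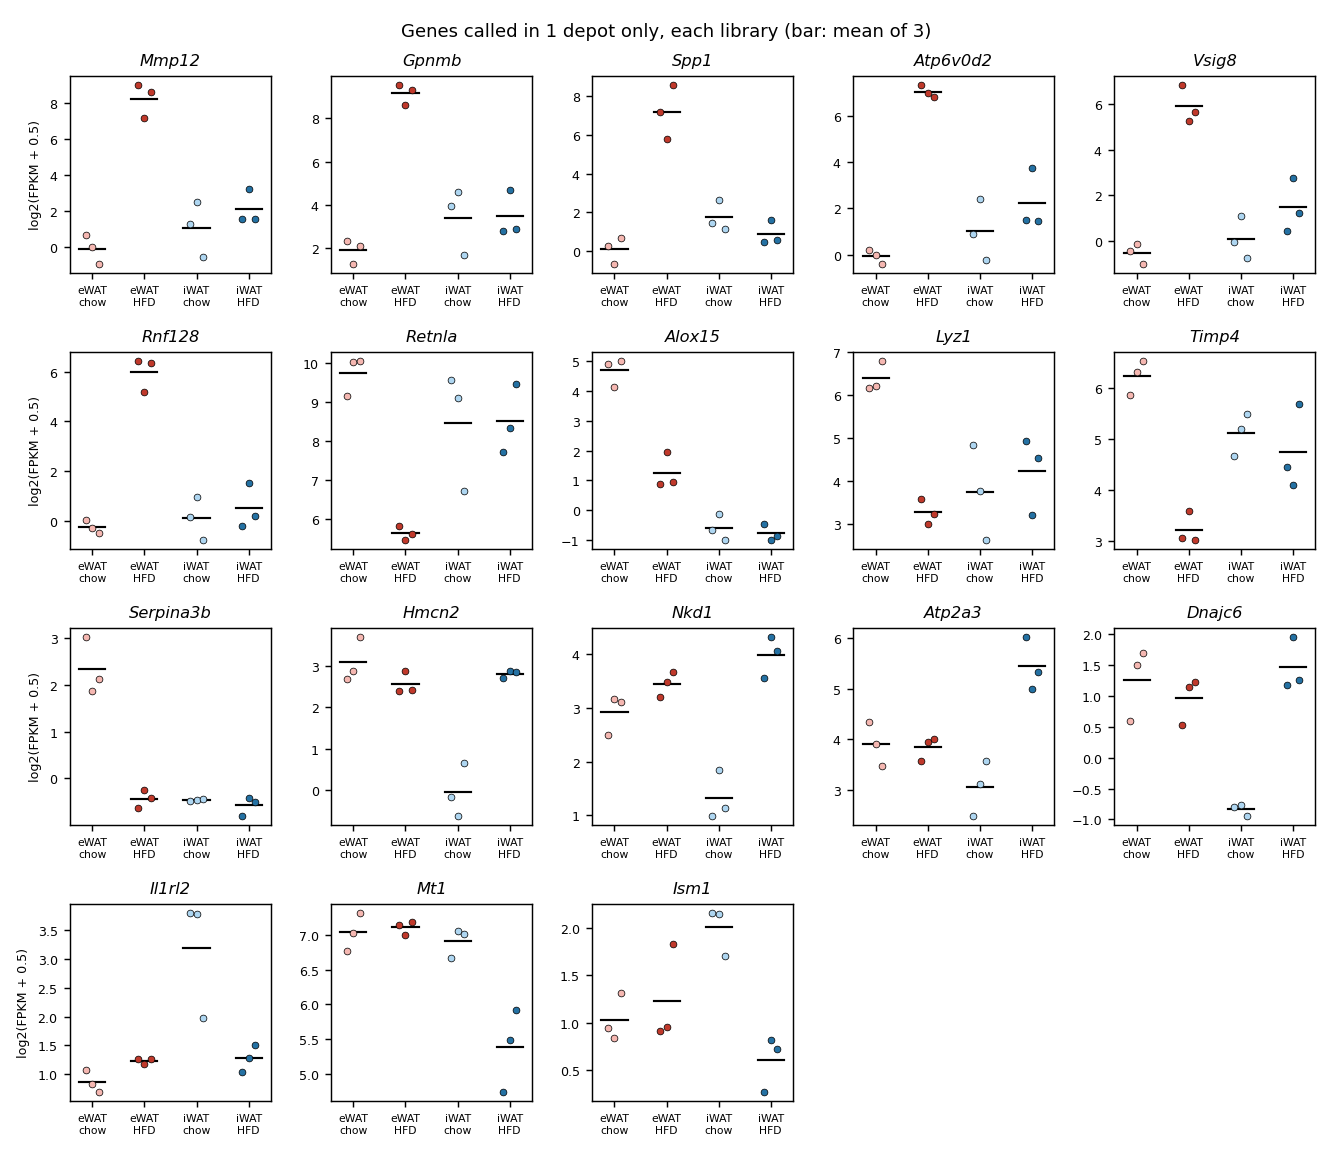
Level of 18 genes called in 1 depot only, as log2(FPKM + 0.5), in each of the 3 libraries of the 4 GFP groups, with the group mean as a bar and each panel on its own scale. The first 6 panels, from Mmp12 to Rnf128, show eWAT HFD far above the other groups, the next 5, from Retnla to Serpina3b, a fall in eWAT, and the last 7 a change in iWAT.

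The promoters of these genes were compared by sequence, since members that rise together may share short motifs. RefSeq promoters (build GRCm38.p6, 250 bases before to 50 after a start) were matched by symbol for 10866 of the genes tested, 270 of the 374 eWAT-only genes that rose and 9 of the 12 lipid-associated macrophage genes called. The letters TGACTCA, the AP-1 motif, occurred on either strand in 4.85% of the genes tested and in 5.95% of all promoters of the table. Among the eWAT-only genes that rose, 34 of 270 held it (12.6%), against 2 of the 76 that fell (2.63%) and 2 of the 34 iWAT-only genes (5.88%). Of the 9 macrophage genes 3 held it: Gpnmb, across or after its start, Itgax and Mmp12. The stretch upstream of the start, 5′ to 3′ and with the motif (here as its reverse complement) in capitals, is shown for the pair that hold it there, Itgax on the plus strand of chr7:128129300-128129549 and the second RefSeq start of Mmp12 on the plus strand of chr9:7347124-7347373.
Itgax: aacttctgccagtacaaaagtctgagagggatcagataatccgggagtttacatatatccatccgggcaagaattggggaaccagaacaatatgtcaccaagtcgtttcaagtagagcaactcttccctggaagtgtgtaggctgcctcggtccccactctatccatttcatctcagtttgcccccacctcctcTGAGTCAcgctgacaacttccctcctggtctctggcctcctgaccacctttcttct
Mmp12: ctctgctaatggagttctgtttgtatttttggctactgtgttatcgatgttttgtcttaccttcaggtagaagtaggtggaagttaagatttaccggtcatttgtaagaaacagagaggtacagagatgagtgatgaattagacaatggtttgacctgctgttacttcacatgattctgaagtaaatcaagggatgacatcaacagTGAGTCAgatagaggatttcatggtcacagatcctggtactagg
The motif begins 56 bases before the start of Itgax and 44 before that of Mmp12.

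In all 6 letter strings were searched, chosen with the values known. The looser TGANTCA, which includes TGACTCA, was in 6.64% of the genes tested, 14.8% of the eWAT-only genes that rose and 4 of the 9 macrophage genes. GAGGAAGT, the PU.1 motif, was in 3.84% of the genes tested, 7.41% of the eWAT-only genes that rose and 2 of the 9. CACGTG, the E-box read by factors of lysosomal genes among many others, was in 11.4% of the genes tested and 11.1% of the eWAT-only genes that rose. The longer TCACGTG and GTCACGTG, which contain it, were in 6.73% and 4.6% of the genes tested and in 7.41% and 5.56% of the eWAT-only genes that rose. Of 25 lysosome genes with a promoter 9 held CACGTG (36%), but of the 9 among them that were called for the interaction 1 did. These matches are descriptions of letters and not evidence of binding.

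Lysosomal genes rose as a broad set in eWAT. Of 34 tested, which include proton pump subunits, proteases and glycosidases, 26 rose in eWAT and none was called in iWAT, and 15 were called for the interaction, all positive. The list median was 1.33 in eWAT, 0.16 in iWAT and 1.12 for the interaction. Ctsk, a collagen-degrading protease, had the largest change among those named here after Atp6v0d2: in eWAT it went from 12.7, 9.78 and 17.6 FPKM to 495, 290 and 274, against 165, 142 and 36.9 and then 28.6, 84.3 and 41.4 in iWAT. On chow Ctsk was higher in every iWAT library than in every eWAT library, and on HFD the reverse held; its interaction was 5.69 ± 0.78 (adjusted p = 0.00424).

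Ctsa, a protective protease of lysosomal enzymes, behaved more evenly between libraries. It went from 33.5 to 41.5 FPKM to 114 to 147 in eWAT and ran from 29.1 to 41.3 in both iWAT groups, with an interaction of 1.70 ± 0.23. Gusb, a glycosidase, had 1.87 ± 0.25 and Cd63, a lysosomal tetraspanin, 2.15 ± 0.30. Leaving out 1 library at a time gave 10 to 19 called lysosomal members, all positive, and leaving out the 3 libraries rich in other transcripts gave 10. Atp6v0d2 and Cd63 are also on the lipid-associated macrophage list, so these lists are not separate sets. Pan-macrophage markers moved with the lysosomal genes in the same libraries, and their part in that rise was not tested.

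Inflammatory mediators rose in eWAT in part. Of 20 tested chemokines and cytokines 9 rose there, none was called in iWAT, where 3.99% of all genes were, and 5 were called for the interaction, all positive: Ccl3, Cxcl14, Il1rn, Ccl4 and Ccl7. Ccl3, which attracts monocytes, went from 0.775, 0.377 and 0.234 FPKM to 12.6, 7.87 and 9.64 in eWAT and was between 0.406 and 1.08 in both iWAT groups. Its interaction of 3.50 ± 0.40 (adjusted p = 0.00231) kept its call under all 27 alternatives. Il1rn, the antagonist of interleukin 1, had 3.77 ± 0.62 and Cxcl14, a chemokine of stromal cells, 3.65 ± 0.55. Cxcl14 was already higher in iWAT on chow, at 28.4, 36.2 and 87.7 FPKM against 1.18 to 1.81 in eWAT. Ccl2, the main monocyte attractant, rose in eWAT by 2.31 but was not called for the interaction (1.45). The receptors of complement fragments C5ar1 and C3ar1 had interactions of 3.26 ± 0.68 and 3.70 ± 0.84, the only 2 called of 19 complement genes, and neither was called without the 3 libraries rich in other transcripts. Chemokine and cytokine calls numbered 3 to 9 in the fits that left out 1 library each, all positive.

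Matrix enzymes followed. Of 29 genes for matrix proteins and their remodelling, 7 were called for the interaction, all positive: Spp1, Mmp12, Mmp3, Mmp13, Adam8, Mmp2 and Mmp14. Spp1 and Mmp12 were counted among the lipid-associated macrophage genes too. Mmp3, a broad matrix protease of fibroblasts, was low in eWAT on chow (1.5, 0.601 and 1.59 FPKM) and reached 20.8, 20.8 and 10.5 on HFD. In iWAT it was at 83.3, 75.1 and 28.1 on chow and 13.7, 46.9 and 18.1 on HFD, and its interaction was 4.65 ± 0.74. Positive matrix calls numbered 4 to 11 in the fits without 1 library, with 2 negative calls beside them only without iWAT chow replicate 3, and without the 3 libraries rich in other transcripts 4 were positive and 1 negative. Of 23 collagen genes only Col6a3 was called, with 1.55 ± 0.39, and it lost the call in 19 of 27 alternatives.

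Oxidative stress and iron genes gave 7 positive calls of 26, but this count rested on few libraries. Srxn1 and Txnrd1, which repair oxidised proteins, had interactions of 2.34 ± 0.46 and 1.34 ± 0.26. Ftl1, the ferritin light chain, went from 611 to 781 FPKM to 1583 to 3133 in eWAT and from 414 to 632 to 341 to 546 in iWAT. Slc11a1, a metal transporter of phagosomes, had 2.71 ± 0.54. Hmox1, which degrades heme, and Prdx1, a peroxidase, had 2.81 and 2.10, and the seventh, Mt1, changed in iWAT. Without eWAT HFD replicate 1 or without iWAT chow replicate 1 no member of the list was called, and without the 3 libraries rich in other transcripts 1 was called positive and 3 negative.

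Single genes of other lists also rose in eWAT alone. Gdf15, a stress hormone that curbs appetite, went from 0.392, 0.0779 and 0.226 FPKM to 17.5, 5.91 and 18.8 in eWAT and ran from 0.302 to 0.894 on chow and 0.489 to 1.0 on HFD in iWAT (interaction 3.98 ± 0.56, adjusted p = 0.00459). Atf3, a stress-induced transcription factor of the AP-1 family, went from 1.91 to 4.20 FPKM to 90.8 to 141 and had 4.22 ± 0.69, with a gene on the opposite strand overlapping it. Egr2, a transcription factor of myelinating Schwann cells and of activated macrophages, had 3.11 ± 0.54. Metrnl and Wisp2, secreted factors of fat, had 2.73 ± 0.65 and 4.27 ± 0.95, and each lost its call in 13 of 27 alternatives. Tgfbr1, a receptor of TGF-beta, had 1.49 ± 0.35, with the call lost in 15. Among 30 interferon response genes 3 were called, with Oas1a, a sensor of viral RNA, at 2.18 ± 0.42, Oasl1 at 2.04 ± 0.51 and Bst2, which had no eWAT call, at 0.93 ± 0.21. Oas1a lost its call in 3, Oasl1 in 18 and Bst2 in 13 of 27 alternatives.

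Cell cycle genes had positive median changes in both depots, 1.53 in eWAT and 1.02 in iWAT, with an interaction median of 0.47. In eWAT 22 of 25 were called as rising, against 7 in iWAT. Their summed level was 45.2 to 56.4 FPKM in iWAT chow and 128, 80.9 and 57.0 in iWAT HFD, the highest being replicate 1, the library richest in B cell transcripts, and without it 2 rose in iWAT. For the interaction only Pcna, the clamp of DNA polymerase, was called (1.35 ± 0.22). Its levels were 20.4 to 23.6 FPKM on chow and 54.9 to 76.7 on HFD in eWAT, and 19.0 to 26.2 over both iWAT groups. Without the 3 libraries rich in other transcripts 3 of the list were called.

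The genes that fell most in eWAT alone include markers of resident and alternatively activated macrophages. Retnla, a secreted protein of such cells (chromosome 16, 48842551 to 48844461), went from 571, 1052 and 1066 FPKM to 56.1, 43.8 and 49.0 in eWAT. In iWAT it was at 767, 554 and 106 before HFD and 210, 325 and 704 with it. Its eWAT change was -4.11 ± 0.66, its iWAT change 0.03 ± 0.66 and the interaction -4.14 ± 0.93 (adjusted p = 0.0325). The low iWAT chow value is that of replicate 3, without which the interaction was -3.27 (adjusted p = 0.0108 in limma), and the call was lost in 11 of 27 alternatives.

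Alox15, a lipoxygenase of resident peritoneal macrophages and eosinophils, was far higher in eWAT. It stood at 29.6, 17.2 and 31.7 FPKM in eWAT chow and 1.34, 3.34 and 1.41 in eWAT HFD, and at no more than 0.41 in iWAT (interaction -3.25 ± 0.49, adjusted p = 0.00586). Lyz1, a lysozyme whose reads may be shared with its near-identical copy Lyz2, had -3.60 ± 0.75, and Mgl2, a lectin, -1.80 ± 0.43. Both fell in eWAT and lost the interaction call in 11 and 14 of 27 alternatives. Of 14 resident macrophage genes tested 5 fell in eWAT and 1 rose, and 2 were called for the interaction, Retnla and Mgl2. Without iWAT chow replicate 3 the list gave 5 positive and 3 negative calls, and its median interaction turned from -0.56 to 0.29. In the fits without 1 other library 0 to 2 were called negative and 0 to 1 positive.

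Timp4, an inhibitor of matrix proteases made by adipocytes, went from 57.5, 78.7 and 91.9 FPKM to 7.81, 11.5 and 7.65 in eWAT (interaction -2.63 ± 0.53), and its iWAT groups overlapped between 16.6 and 50.8. Serpina3b, a protease inhibitor, went from 7.65, 3.14 and 3.87 FPKM to 0.147, 0.339 and 0.243 in eWAT. It was at most 0.249 in iWAT, where a fall could hardly be seen, and its interaction was -2.66 ± 0.39. Bmp4, a factor of adipocyte commitment, had -1.43 ± 0.35 and lost the call in 15 of 27 alternatives.

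Mesothelial markers fell in eWAT and had almost no level in iWAT to lose. Their sum over 12 genes was 389 to 513 FPKM in eWAT chow and 107 to 172 in eWAT HFD, and under 3 in every iWAT library. In eWAT 9 of 11 tested fell, and 6 were called for the interaction, all negative, with a list median of -1.60. Upk3b, a membrane protein of mesothelium (chromosome 5, 136038496 to 136046487), went from 120, 137 and 197 FPKM to 29.6, 26.3 and 28.2 and was at most 0.0603 in iWAT (interaction -2.42 ± 0.24, adjusted p = 0.00144). Msln, the surface protein mesothelin, had -1.78 ± 0.22, and the transcription factors Bnc1 and Wt1, both listed at 0 in all iWAT libraries, -1.73 ± 0.27 and -1.69 ± 0.30. Leaving out 1 library at a time gave 4 to 8 calls and leaving out the 3 libraries rich in other transcripts gave 10, all negative. The interaction of these genes is therefore close to their eWAT change alone, and its sign was fixed by the fall there. Libraries near 0 vary little on this scale, so the SE, pooled over the groups, is likely too small for eWAT.

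Adipocyte genes fell in eWAT, but the depot difference depended on 1 library. Of 29 genes of adipocyte identity and triglyceride storage 13 fell in eWAT and none was called in iWAT, with a median of -0.82 in eWAT and -0.24 in iWAT. Only Retn, the adipokine resistin, was called for the interaction: it went from 722, 1069 and 863 FPKM to 74.2, 95.1 and 72.4 in eWAT and from 696, 740 and 784 to 214, 418 and 661 in iWAT (-2.52 ± 0.48, adjusted p = 0.0153). The lowest of the 3 iWAT HFD values is that of replicate 1, the library rich in B cell transcripts. Adipoq showed the same low replicate, with 841 FPKM against 1677 and 1789, and an interaction of -1.30 ± 0.41 without a call. Without that library 11 of the 29 were called, all negative, and the list median was -1.12, with an iWAT median of 0.07. Without the 3 libraries rich in other transcripts 5 were called, all negative.

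Genes of the citrate cycle and of branched-chain amino acid breakdown did likewise. In eWAT 23 of 31 fell and in iWAT 3 (1 without iWAT HFD replicate 1), and all 31 interactions were negative in sign, with a median of -0.49 and no call. The smallest adjusted p was that of Aldh6a1, an enzyme of valine breakdown, at -1.01 ± 0.35 (adjusted p = 0.151). Without iWAT HFD replicate 1 there were 12 calls, all negative, and without the 3 libraries rich in other transcripts 10. Of 50 nuclear genes of oxidative phosphorylation none was called for the interaction (median -0.087), nor was one in any of the fits that left out a library. Of 21 genes of cholesterol synthesis and uptake 7 rose in eWAT and 5 in iWAT, with no interaction call and 2 negative calls without iWAT HFD replicate 1.

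The genes that changed in iWAT alone are fewer and of mixed kinds. Hmcn2, a large matrix protein (chromosome 2, 31314415 to 31460738), was at 0.393, 0.155 and 1.08 FPKM in iWAT chow and 5.98, 6.85 and 6.67 in iWAT HFD. Its eWAT values were 5.91, 6.81 and 12.4 for chow and 4.78, 6.77 and 4.79 for HFD. On HFD iWAT thus reached the level that eWAT had on both diets. Hmcn2 rose by 2.84 ± 0.33 in iWAT and had an interaction of -3.37 ± 0.46 (adjusted p = 0.00424).

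Nkd1, an inhibitor of Wnt signals, went from 1.49, 3.08 and 1.70 FPKM to 11.3, 19.3 and 16.0 in iWAT, against 5.11 to 8.48 and 8.71 to 12.1 in eWAT (interaction -2.12 ± 0.39). Dnajc6, a cochaperone of clathrin uncoating, went from at most 0.0901 FPKM to 1.77, 3.38 and 1.88 in iWAT and ran from 0.938 to 2.75 in eWAT (-2.60 ± 0.45). Atp2a3, a calcium pump of the endoplasmic reticulum found in lymphoid and endothelial cells, went from 5.12, 8.19 and 11.4 FPKM to 64.3, 31.2 and 39.6 in iWAT (-2.45 ± 0.46). Its highest value is that of the library rich in B cell transcripts, and without the 3 libraries rich in other transcripts the interaction was -2.02. In all 4 genes the iWAT groups did not overlap. The genes were chosen for a call and a large rise in iWAT on these same libraries, so this is no further support.

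Cdh19, a cadherin of Schwann cell precursors, the glia of peripheral nerves, fell in iWAT from 2.58, 2.31 and 2.64 FPKM to 0.44, 0.783 and 0.946. It was at most 0.182 FPKM in eWAT, where a fall could hardly be seen, and its interaction of 1.25 ± 0.29 (adjusted p = 0.0358) lost the call in 16 of 27 alternatives.

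Il1rl2, the receptor of interleukin 36, was at 13.4, 13.1 and 3.43 FPKM in iWAT chow and 1.56, 1.92 and 2.35 in iWAT HFD, and from 1.12 to 1.91 in eWAT. The interaction was 2.28 ± 0.56 (adjusted p = 0.0466) and lost its call in 18 of 27 alternatives. Its low chow value is that of replicate 3, without which the interaction was 2.88. Mt1, a metallothionein that binds zinc, was at 102, 133 and 129 FPKM in iWAT chow and 26.2, 44.4 and 59.9 in iWAT HFD, and between 109 and 160 in eWAT (1.62 ± 0.37). Ism1, an insulin-like adipokine, fell in iWAT from 2.77 to 3.98 FPKM to 0.704 to 1.26 (1.61 ± 0.38). Without the 3 libraries rich in other transcripts the interactions of Mt1 and Ism1 were 1.12 and 1.10, the latter without a call.

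Fgf1 led the 12 genes with opposite effects. It codes for a growth factor that fat makes on feeding and that is needed for its remodelling. In eWAT it fell from 49.4, 66.1 and 93.8 FPKM to 28.9, 33.9 and 25.5. In iWAT it rose from 2.22, 5.26 and 3.72 to 12.4, 22.2 and 20.0. The groups did not overlap in either depot, and HFD brought the depots closer, since eWAT was higher on both diets. The changes were -1.19 ± 0.31 in eWAT and 2.17 ± 0.31 in iWAT, with an interaction of -3.36 ± 0.44 (adjusted p = 0.00376), and the call was lost in 1 of 27 alternatives.

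Scg3, a protein of secretory granules, fell in eWAT from 1.11, 2.34 and 2.40 FPKM to 0.534, 0.513 and 0.286 and rose in iWAT from 0.321, 0.281 and 0.272 to 2.12, 1.44 and 1.56 (interaction -2.80 ± 0.34). On chow eWAT was the higher depot and on HFD iWAT, with no overlap in either case. Kcnj15, an inward potassium channel, fell in eWAT from 13.3, 20.0 and 15.6 FPKM to 4.73, 7.78 and 9.91 and rose in iWAT from 3.20, 3.65 and 4.19 to 8.37, 10.6 and 7.07 (-2.23 ± 0.35). Bicdl1, an adaptor of vesicle transport, fell from 4.61 to 6.11 FPKM to 3.10 to 3.52 in eWAT and rose from 1.49 to 2.55 to 4.93 to 5.92 in iWAT (-1.85 ± 0.24). Ugt1a6b, which conjugates glucuronic acid, had -1.96 ± 0.27, but it shares exons with the other Ugt1a genes at its locus, so that its own level is uncertain.

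Adamts15, a protease of the proteoglycan versican, was the 1 gene of the 12 that rose in eWAT and fell in iWAT. It went from 3.11, 2.48 and 2.67 FPKM to 6.27, 4.92 and 3.74 in eWAT and from 4.22, 3.88 and 3.33 to 2.04, 2.11 and 1.18 in iWAT. Chow values were thus higher in every iWAT library and HFD values in every eWAT library, and the interaction was 1.67 ± 0.30 (adjusted p = 0.013).

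The remaining 6 were outside the naming rule and are named after their values were seen. Rbpms, an RNA-binding protein, Palmd, a membrane-associated protein, Akap12, a scaffold of protein kinase A, and Olfml2a, a matrix protein, had interactions between -1.52 and -1.40. Gm15519 and Gm8895 are annotated as pseudogenes, had -2.27 ± 0.32 and -3.10 ± 0.51, and could hold reads of related genes. All 12 opposite genes had groups that did not overlap in either depot. They were chosen by calls in both depots on these same libraries, so this is no further support. Number and direction of opposite genes depended on single libraries. Without iWAT chow replicate 3, the library low in macrophage transcripts, there were 87, of which 67 rose in eWAT and fell in iWAT and 20 did the reverse. Without iWAT chow replicate 1 there were 3, all lower in eWAT on HFD, and without the 3 libraries rich in other transcripts 34, 11 rising and 23 falling in eWAT.

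**Figure D3:**
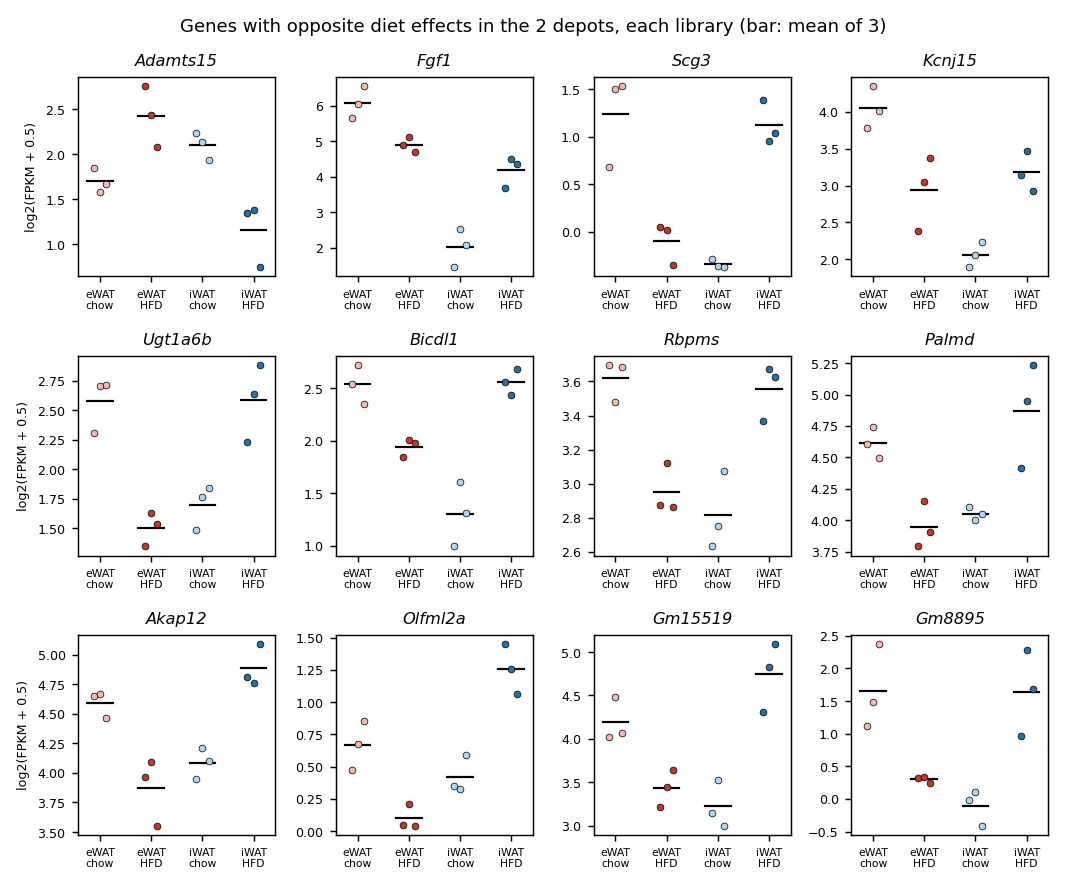
Level of the 12 genes called in both depots with opposite signs, as log2(FPKM + 0.5), in each of the 3 libraries of the 4 GFP groups, with the group mean as a bar and each panel on its own scale. In 11 panels the eWAT points go down and the iWAT points go up from chow to HFD, and in the Adamts15 panel the reverse holds.

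Fgf1 belonged to 13 tested genes tied to the expansion of fat. HFD raised 6 of them in iWAT, and in eWAT it raised 4 and lowered 3. Fgf1 was the only one called for the interaction. Without the 3 libraries rich in other transcripts 4 were called for it, all negative. In that fit 7 rose in iWAT, and in eWAT 0 rose and 3 fell. Fstl3, a secreted inhibitor of activin, came close to the opposite pattern: it rose in iWAT from 0.763, 1.84 and 0.864 FPKM to 3.43, 4.51 and 4.70 and went from 2.81, 4.57 and 4.67 to 1.92, 2.54 and 1.94 in eWAT without a call there. Its interaction was -2.31 ± 0.37 (adjusted p = 0.00759). Mylk, a kinase of smooth muscle myosin, had -1.52 ± 0.31, the only call among 12 mural and smooth muscle genes.

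A few genes moved the same way in both depots but to unequal extents. Gpr50, an orphan receptor related to melatonin receptors, was at most 0.047 FPKM in all chow libraries and reached 8.69, 11.4 and 10 in eWAT and 0.796, 3.74 and 1.15 in iWAT (interaction 2.31 ± 0.50). Mogat1, an enzyme of triglyceride synthesis, fell from 25.5 to 27.3 FPKM to 1.21 to 2.52 in eWAT and from 19.9 to 31.1 to 4.61 to 14.8 in iWAT (-1.97 ± 0.49). Specc1, a cytoskeletal protein, rose from 0.306 to 0.433 FPKM to 4.50 to 5.35 in eWAT and from 0.281 to 0.486 to 0.85 to 1.43 in iWAT (1.89 ± 0.26). Gpr50 and Mogat1 lost their calls in 15 and 18 of 27 alternatives, and Specc1 in 1.

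**Figure D4:**
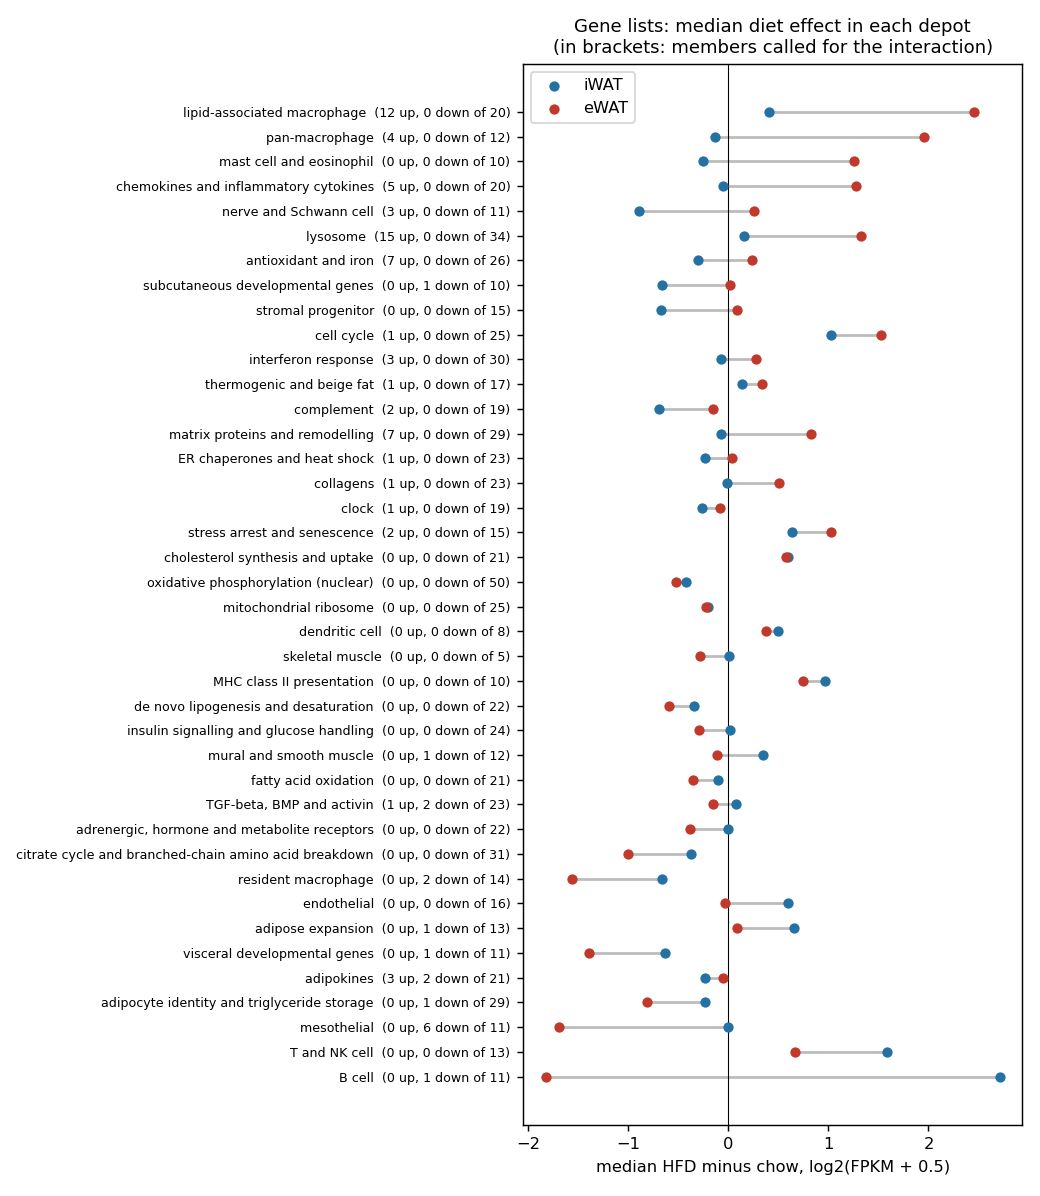
Median change from chow to HFD in log2(FPKM + 0.5) over the tested members of each gene list, in eWAT (red) and iWAT (blue), for lists with at least 5 tested members, ordered by the median interaction; the brackets give members called for the interaction. Lipid-associated macrophage genes have the highest eWAT median, 2.46, beside 0.40 in iWAT, and B cell genes the widest gap, -1.82 against 2.71, which was -1.06 against 0.99 without the 3 libraries rich in other transcripts.

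B cell genes had the most negative list median, -4.28 over 11 tested genes, yet only Ighm, the heavy chain of immunoglobulin M, was called. Its levels were 2339, 712 and 398 FPKM in eWAT chow, 255 to 293 in eWAT HFD, 202 to 290 in iWAT chow and 1269, 635 and 654 in iWAT HFD. The highest values of eWAT chow and of iWAT HFD came from the 2 libraries rich in Cd79a. Ighm had an interaction of -3.32 ± 0.74 (adjusted p = 0.032) and without the 3 libraries rich in other transcripts -2.31 (adjusted p = 0.0203). The list median was then -2.31. No T and NK cell gene of 13 was called, and their median of -1.61 turned to 0.65 without those libraries. Among 16 endothelial genes none was called either, with a median of -0.58 that became 0.04. Another library mattered as well: iWAT chow replicate 3 had an endothelial sum of 494 FPKM, against 226 and 192 in its group. Kdr and Esam, the members named by the rule, had interactions of -1.25 and -1.30 without it, neither called. Without the 3 libraries rich in other transcripts they had -0.52 and -0.39.

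The same interaction in the 12 AAV-irisin libraries, which share no library with the GFP fit, had the same direction for nearly all genes called in GFP. There 555 of 16266 genes were called (3.41%), 409 positive and 146 negative. Of the 714 GFP calls 672 were tested in the irisin libraries and 663 of them (98.7%) had the same sign. The share with the same sign among all genes tested was not computed, so no base rate stands beside this. Called in both were 138 genes, 19.3% of the GFP calls and 24.9% of the irisin calls, 0 of them with opposite signs. All 33 genes plotted had the same sign and 16 were called, among them Spp1 (7.57 ± 0.97), Gpnmb (7.44 ± 1.16), Fgf1 (-2.72 ± 0.58) and Kcnj15 (-2.69 ± 0.31). Smaller estimates in the irisin libraries were those of Retnla (-0.69 ± 0.86), Lyz1 (-0.33 ± 0.66), Scg3 (-0.55 ± 0.38) and Hmcn2 (-0.95 ± 0.35), none of them called.

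The difference of the interaction between vectors was tested directly, and limma called 0 of 17687 genes. At an unadjusted p under 0.05 there were 643, the smallest adjusted p was 0.887, and voom on the recovered reads called 0 as well. Hence no gene, Retnla and Hmcn2 included, was shown to differ between vectors in its depot by diet interaction. Without eWAT irisin chow replicate 2, or without iWAT irisin HFD replicate 3, the irisin libraries gave 0 calls, and without eWAT irisin HFD replicate 2 they gave 2864.

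**Figure D5:**
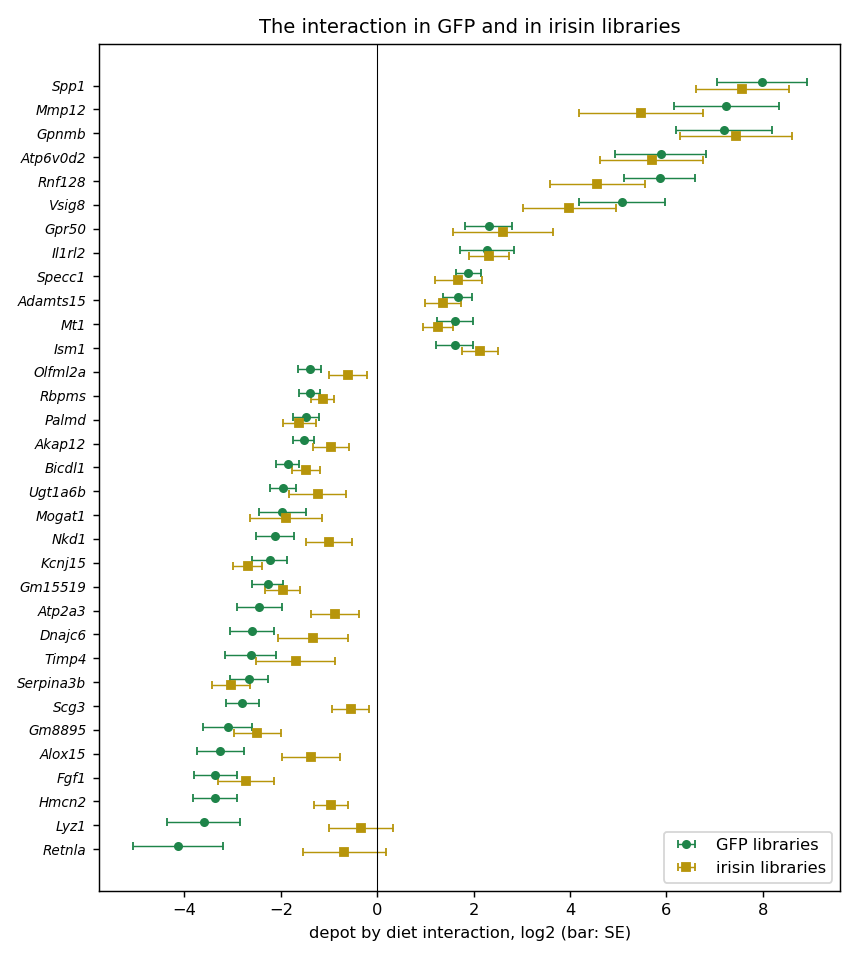
Depot by diet interaction in log2 (± SE as bars) of 33 genes named by class, in the 12 GFP libraries (circles) and the 12 irisin libraries (squares), ordered by the GFP value. All 33 pairs lie on the same side of 0, and the bars of Retnla and Lyz1 in the irisin libraries reach across it.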

How the data were processed

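The series holds 24 libraries in 8 groups of 3, by depot, vector and diet as the sample labels give them. Polyadenylated RNA was sequenced, per the labels' protocols. The authors used HISAT2 2.0.5 for alignment and featureCounts 1.5.0-p3 for counting, per the submitters' processing notes. They deposited FPKM per gene. Genome build and use of strand are not given in the sources used here; positions are those of the deposited table, 98.3% of which equal GENCODE release M21. The 8 columns of group means were not used. FPKM multiplied by gene length gave whole reads within 0.01 for 100% of values, with totals of 14.2 to 19.7 M in the 12 GFP libraries.

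Genes with at least 0.5 FPKM in 3 of 12 libraries were fitted on log2(FPKM + 0.5) with limma 3.58.1 in R 4.3.3, the 4 groups in 1 fit with variances that follow the mean, and Benjamini-Hochberg adjustment over all genes. With 3 libraries a group an exact permutation test of 1 gene between chow and HFD in 1 depot, in either direction, is never under 0.1. This limit is for such a comparison and not for the interaction. The irisin libraries had their own fit, and the vector difference a fit of all 24. The members, the 42 gene lists and the tests were chosen with earlier results of these data known.

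Genes were named by a rule: protein-coding, called for the interaction and with a group mean of at least 1 FPKM, the 6 largest rises and 6 largest falls of the eWAT-only class, 4 and 4 of the iWAT-only class, up to 5 and 5 of the opposite class, 3 of the same-direction class, up to 4 called members of each list described with the smallest adjusted p, and a few markers. Other genes are named after their values were seen, and a few that met the rule are not reported here. Alternatives were other pseudocounts, filters and scalings, replicate blocks, array weights, robust moderation, a fold minimum, voom on the recovered reads, a fit of 24 libraries and fits without libraries. The 3 libraries rich in other transcripts are iWAT HFD replicate 1, eWAT chow replicate 1 and eWAT HFD replicate 3. Plots used matplotlib 3.10.9 (Python 3.11.15).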

Additional observations from a re-analysis of the deposited data

Results flagged for a closer look

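A difference between the depots under the same contrast was tested for every gene, and 714 genes had one. By class 487 were called in eWAT only, 54 in iWAT only and 12 in both with opposite signs. A missing call does not show that the other depot did not respond. In the 12 opposite genes each depot was called with its own sign. Their number and direction depended on single libraries, with 3 to 87 such genes when 1 library was left out. Adamts15 rose in eWAT and fell in iWAT, with an interaction of 1.67. The other 11 fell in eWAT and rose in iWAT: Fgf1 with -3.36, Gm8895 with -3.10, Scg3 with -2.80, Gm15519 with -2.27, Kcnj15 with -2.23, Ugt1a6b with -1.96, Bicdl1 with -1.85, Akap12 with -1.52, Palmd with -1.48, Rbpms with -1.40 and Olfml2a with -1.40. Groups of 3 libraries are too small for a test of outlying samples.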

How the results depend on the processing

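No named gene's interaction and no total of interaction calls changed direction under an alternative, but directions within counts and lists did: without iWAT chow replicate 3 the opposite genes went from 1 rising and 11 falling in eWAT to 67 and 20, and the iWAT calls from 427 rising and 232 falling to 389 and 442. The GFP interaction, called for 714 genes, gave 306 with a replicate block within diet, 3900 with array weights, 30 with a fold minimum of 1 log2 unit and 1206 without the 3 libraries rich in other transcripts (648 positive, 558 negative, 452 shared with the 714). The eWAT effect gave 5653 with array weights and 271 with the fold minimum. The iWAT effect gave 387 with no filter on low values, 3795 with array weights, 1 with the fold minimum and 1225 in the fit of 24 libraries. eWAT-only genes numbered 1843 with array weights and 30 with the fold minimum. iWAT-only genes numbered 29 with no filter, 799 with array weights, 0 with the fold minimum, 32 with voom and 93 without the 3 libraries. Opposite genes numbered 4 with no filter, 19 with the replicate block, 314 with array weights, 0 with the fold minimum, 20 in the fit of 24 libraries and 34 without the 3 libraries. The irisin interaction gave 111 with no filter. The causes were not tested, except that array weights let the model lower the weight of single libraries and the fold minimum asks for a larger change. Leaving out 1 library at a time gave 258 to 1410 interaction calls in GFP, 1852 to 4252 eWAT calls, 150 to 831 iWAT calls, 173 to 920 eWAT-only genes, 13 to 137 iWAT-only genes, 3 to 87 opposite genes, 0 to 2864 irisin calls and 0 to 0 vector differences. The lowest counts came without eWAT HFD replicate 1 (interaction, eWAT and eWAT-only) or iWAT chow replicate 1 (iWAT, iWAT-only and opposite), the highest without iWAT HFD replicate 1 or iWAT chow replicate 3.

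The labels do not say whether eWAT and iWAT libraries of the same number came from the same mouse; if they did, the replicate block within diet is that pairing. The numbers did not meet the rule for pairing, which asks every pair to correlate above 0.1. Of 18 pairs of libraries with the same number 6 had deviations correlated above 0.1 (range -0.141 to 0.602). Among them were the 3 of eWAT chow with iWAT HFD (0.602, 0.43 and 0.251), and 7 of 12 libraries correlated best with their own number. Most of the pairs join groups on different diets, which cannot share a mouse, so the rule cannot decide whether depots were paired. Within chow, eWAT with iWAT gave 0.006, 0.2 and -0.141. Within HFD the values were -0.084, 0.028 and -0.065. With the replicate block the interaction gave 833 calls, 646 of them among the 714. At 13.9 to 19.7 reads for 0.5 FPKM in 2000 bases, counting error limits the changes that can be seen in genes near that level.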
